A study of Drosophila melanogaster with 6 samples.

Results

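The 10 genes followed here, trn, caps, haf, Con, Lapsyn, kek1, kek4, kek5, kek6 and sli, encode leucine-rich-repeat proteins that sit on or leave the cell surface, and were measured in late-blastoderm embryos of the fruit fly Drosophila melanogaster. They were taken by their CG numbers from a table of 9073 genes, and all 10 were found in it. The embryos were of the wild-type stock Oregon R, and both groups had been injected before cells formed, with water in 3 libraries and with a mixture of double-stranded RNAs (dsRNA) against even-skipped (eve) and runt (run), 1 µg/µl each, in the other 3. The dsRNA acts on matching transcripts through RNA interference, and the series asks which genes these pair-rule transcription factors control. Eggs had been laid over at most 1 h at 25 °C, and injected embryos of both groups developed at 18 °C. Each library held RNA of about 50 whole embryos, picked by hand at a stage just before gastrulation, so fewer cells of a type and less RNA per cell cannot be told apart. The labels do not state whether replicates came from different injection days, and p-values therefore speak only of the spread among these samples, which may be technical.

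Leucine-rich repeats are short, leucine-spaced stretches that stack into a curved binding surface, and on extracellular proteins they commonly serve cell recognition and adhesion. Tartan (trn) and Capricious (caps) are related transmembrane proteins that shape cell affinity at boundaries and guide axons and tracheal cells; in the early germband, trn is expressed in stripes set by pair-rule genes, and the teneurin Ten-m acts as a partner of its protein at compartment boundaries. The kekkons join the repeats to an immunoglobulin domain, while Slit (sli) is a secreted repellent that binds Robo receptors.

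The libraries held 23234425 to 49364110 gene reads. Levels below are normalised counts, that is, reads per gene divided by the authors' size factor of the library. Water replicate 2 lay apart, scoring 60.6 on a first principal component (54.7% of the variance) on which the other 5 libraries scored −27.7 to 5.61. On the second component (20% of the variance), dsRNA replicate 3 scored 22.9 and dsRNA replicates 1 and 2 scored −23.5 and −21.7. Of the targeted genes, run stood at 1733 to 1975 after dsRNA and at 2220 to 3557 in water, without overlap, whereas eve overlapped (2325 to 2922 against 1699 to 3075). Neither difference passed over all genes (limma adjusted p = 0.999 for both), so the groups are named by their labels.

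None of the 10 genes differed between dsRNA and water past the threshold, an adjusted p of 0.05 over all 9073 genes. In the limma-trend fit 0 of 10 passed, beside 0.011% of all genes (1 gene), and each of the 10 had an adjusted p = 0.999. At an unadjusted limma p under 0.05 there was 1 of 10, Con, beside 2.27% of all genes. Limma-voom on whole reads likewise passed 0 of 10, beside 0.0331% of all genes, with 1 of 10 at an unadjusted p under 0.05, beside 3.06%. The log2 fold change was positive for 8 of 10, beside 49.5% of all genes, with a median of 0.23 beside −0.0015 over all genes. That median was 0.08, with 6 of 10 positive, without water replicate 2. In that fit 3937 of 9073 genes were positive, and the median over all genes was −0.026. With 3 libraries a group, an exact permutation test of a single gene cannot give a two-sided p under 0.1, so none was made.

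Per length of exon, the 10 genes spanned a wide range of levels in water-injected embryos and fell into a high, a middle and a low set. The scale is reads per kilobase of exon per 1000000 gene reads, with exon lengths of the BDGP6 annotation. The high set was kek5 at 31.9 ± 0.88, sli at 14.9 ± 8.33, trn at 11.1 ± 6.03 and Lapsyn at 9.45 ± 4.35 (SD, n = 3). The sli value is an underestimate from its row CG8355 alone, and with a second sli row, given below, it was 19.7 ± 11.0. The order here uses CG8355 alone. The middle set was Con at 1.31 ± 0.043, kek6 at 0.753 ± 0.124 and kek1 at 0.619 ± 0.053. The low set was caps at 0.088 ± 0.036, kek4 at 0.056 ± 0.014 and haf at 0.037 ± 0.029. Neighbours in this order mostly did not differ beyond their spread: the ranges over water libraries overlapped between sli, trn and Lapsyn, between kek6 and kek1, and among caps, kek4 and haf. The exceptions were kek5, whose lowest water library (30.9) lay above the highest of sli (22.7), and the steps from Lapsyn to Con, from Con to kek6 and from kek1 to caps. Among 8973 genes with a length, kek5 stood at percentile 70.4 and haf at percentile 3.45. Every gene of the table had reads in at least 4 libraries, so these percentiles rank only genes with reads.

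**Figure D1:**
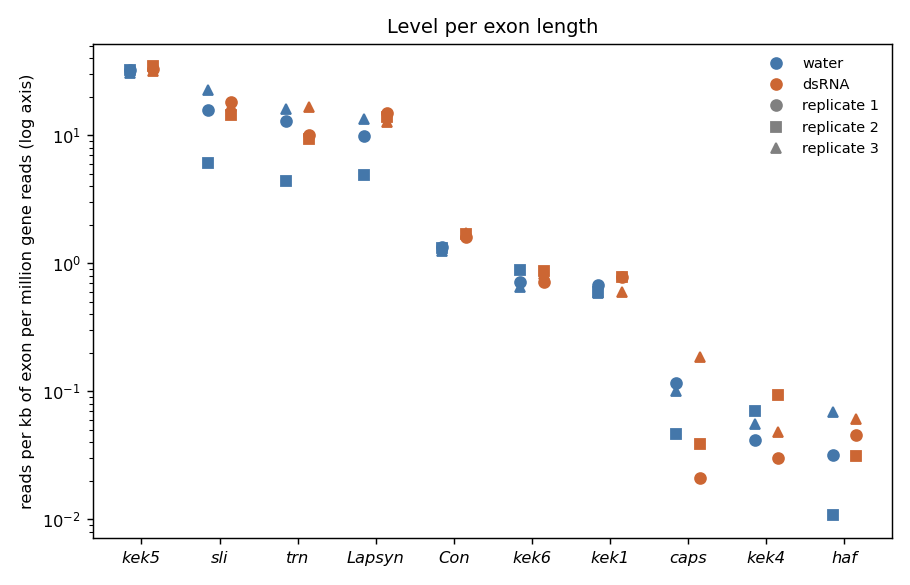
Reads per kilobase of exon per 1000000 gene reads (log axis) for the 10 genes, ordered by their mean in water. The points of sli are from CG8355 alone and are underestimates. Each point is a library, with water in blue and dsRNA in orange and the shape giving the replicate; kek5 leads at 31.9 in water, and caps, kek4 and haf lie under 0.2 in every library.

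The pair trn and caps, neighbours on chromosome arm 3L, differed 127-fold in mean level per length in water, and neither differed between groups beyond the spread. The gene trn (CG11280; BDGP6 chromosome 3L, 13114271 to 13118077, plus strand) had levels of 1457, 507 and 1781 normalised counts in water libraries 1, 2 and 3. It stood at 1138, 1074 and 1820 in dsRNA replicates 1, 2 and 3. The groups overlapped: water replicate 2 was the lowest of all 6 libraries, and dsRNA replicates 1 and 2 lay between it and the other water libraries. Group means were 1248 ± 662 and 1344 ± 413 (SD, n = 3 each). The log2 fold change was 0.25 (SE 0.48), and its 95% confidence interval ran from −0.90 to 1.40. Without water replicate 2 the sign turned, to −0.30 ± 0.23 (limma adjusted p = 0.891). A lower trn level in dsRNA replicates 1 and 2 than in water replicates 1 and 3 was not shared by dsRNA replicate 3, which was the highest of all.

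Downstream of trn, 110614 bases separate it from caps (CG11282; BDGP6 chromosome 3L, 13228692 to 13279642, plus strand), with 2 protein-coding genes annotated between them. Levels of caps were 18.9, 7.72 and 15.9 normalised counts in water replicates 1 to 3 and 3.41, 6.39 and 29.3 in dsRNA replicates 1 to 3, from 5 to 25 reads a library. The dsRNA group thus held both the lowest values and the highest. Its log2 fold change was −0.52 (SE 0.75), and the 95% confidence interval ran from −2.33 to 1.28. Without dsRNA replicate 3 it was −1.33 ± 0.51 (SE; limma adjusted p = 0.735), and both remaining dsRNA libraries lay below every water library, beside 14.4% of all genes. Without dsRNA replicate 1 the sign turned, to 0.06 ± 0.73.

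The third gene of this kind, haf (CG14351; BDGP6 chromosome 2L, 1555129 to 1609389, plus strand), carries the RefSeq synonym tartan/capricious-like. It was near the limit of counting, with 2 to 16 reads a library. Levels were 7.56, 2.57 and 15.9 normalised counts in water and 10.9, 7.45 and 14.0 after dsRNA. As in trn, replicate 3 was highest in each group and water replicate 2 lowest of all. The log2 fold change was 0.51 ± 0.61 (SE), and −0.07 ± 0.44 without water replicate 2.

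**Figure D2:**
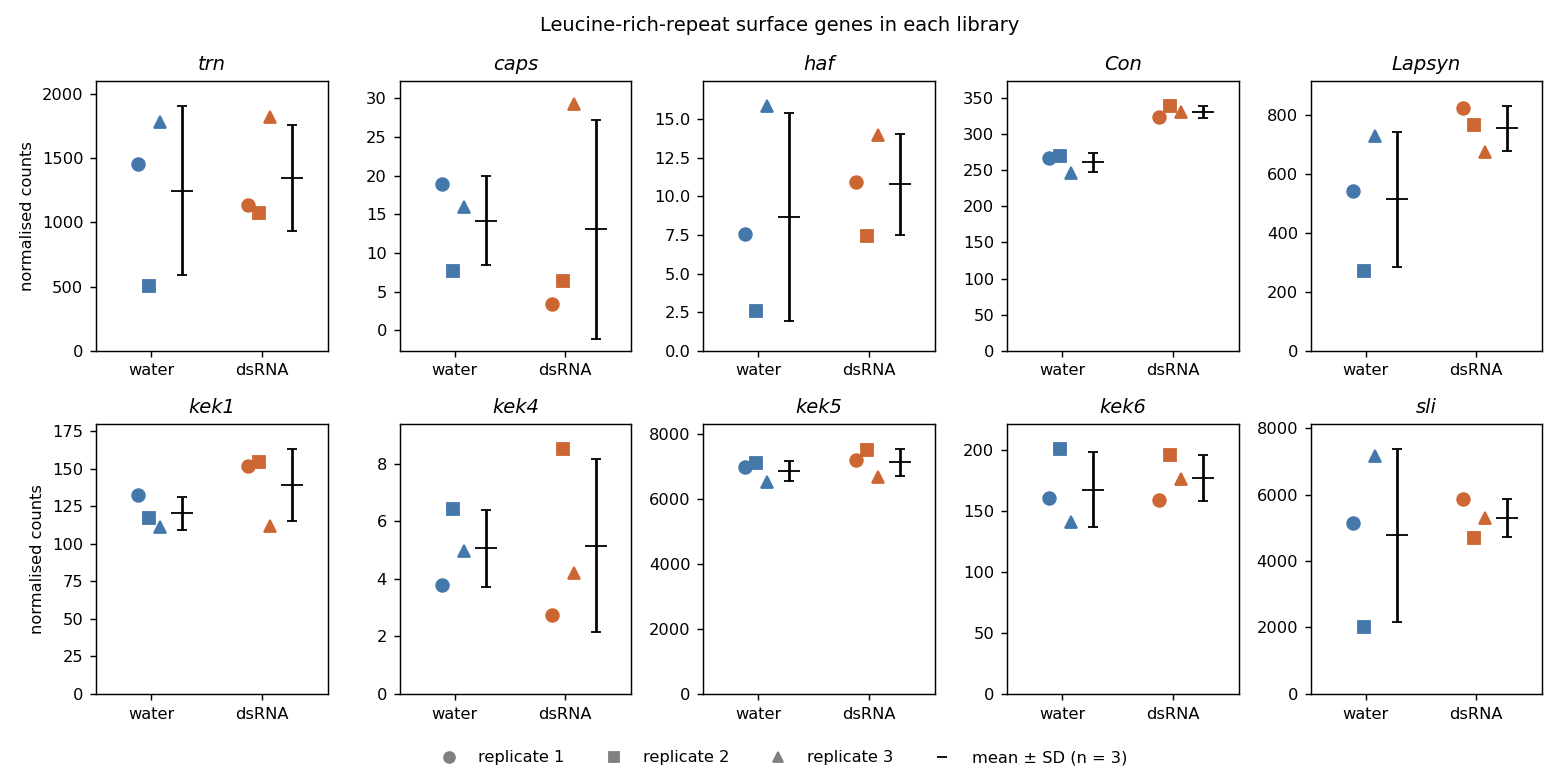
Normalised counts of each gene in the 6 libraries, 1 panel a gene with its own linear axis from 0, or just below it where an error bar reaches there. Blue points are water and orange points dsRNA, shapes give the replicate, and black bars are means ± SD (n = 3); only in Con do the groups stand apart, at 246 to 269 in water and 323 to 340 after dsRNA.

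Con was the only one of the 10 genes whose groups did not overlap. It encodes Connectin, an adhesion protein linked to the membrane by a lipid anchor, known from muscles and the motor neurons that reach them, and found as a target of the homeotic protein Ultrabithorax. Con (CG7503; BDGP6 chromosome 3L, 4936758 to 5079033, minus strand) had 268, 269 and 246 normalised counts in water libraries 1 to 3 and 323, 340 and 331 in dsRNA replicates 1 to 3. Every dsRNA library lay above every water library, and the spread within each group was small. Mean levels of 261 ± 12.7 and 331 ± 8.22 (SD, n = 3 each) put dsRNA 1.27-fold above water. The log2 fold change was 0.34 (SE 0.13), and its 95% confidence interval ran from 0.03 to 0.66. For Con limma gave an adjusted p = 0.999 over all genes. Higher dsRNA libraries with no overlap were found for 1 of 10 members, beside 2.99% of all genes, and lower ones for 0 of 10, beside 3.36%. Leaving out any single library kept the log2 fold change of Con between 0.30 and 0.37. With water replicate 2 left out it was 0.37 ± 0.15 (limma adjusted p = 0.891).

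Lapsyn, named for a leucine-rich-repeat protein found at synapses, had the highest log2 fold change of the 10 and a wide error. Its levels (CG15658; BDGP6 chromosome 2R, 21193571 to 21199431, plus strand) were 542, 272 and 727 normalised counts in water replicates 1 to 3 and 825, 767 and 673 in dsRNA replicates 1 to 3. Water replicate 3 lay above dsRNA replicate 3, so the groups overlapped at that point. Mean levels were 513 ± 229 and 755 ± 76.6 (SD, n = 3 each). The log2 fold change was 0.66 (SE 0.35), and its 95% confidence interval ran from −0.17 to 1.50. The value rested largely on water replicate 2, without which it was 0.26 ± 0.16 (SE; limma adjusted p = 0.891). Without water replicate 3 it was 0.97 ± 0.30 (limma adjusted p = 0.887).

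Among the kekkons, kek5 was abundant and nearly level across libraries, kek1 and kek6 were moderate, and kek4 was scarcely read. Kek5, which modulates BMP signalling and affects adherens junctions, has its gene on the X chromosome (CG12199; BDGP6 chromosome X, 19353181 to 19471914, plus strand). It had 6977, 7101 and 6517 normalised counts in water libraries 1 to 3 and 7186, 7505 and 6685 in dsRNA libraries 1 to 3. The groups overlapped, and replicate 2 was highest and replicate 3 lowest in each. For kek5 the log2 fold change was 0.05 (SE 0.07), and its 95% confidence interval ran from −0.11 to 0.21, which spans 0.928-fold to 1.16-fold. This was the narrowest interval among the 10 genes.

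Kek1, an inhibitor of the EGF receptor, is encoded at CG12283 (BDGP6 chromosome 2L, 12817000 to 12822787, minus strand). Levels of kek1 were 132, 117 and 111 normalised counts in water and 152, 154 and 112 after dsRNA. The third dsRNA library lay within the water range, and the other two lay above it. Compared with water, the dsRNA libraries gave a log2 fold change of 0.20 ± 0.21 (SE), and 0.35 ± 0.18 without dsRNA replicate 3 (limma adjusted p = 0.751).

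Kek6, known as a receptor subunit for a neurotrophin-family ligand at the neuromuscular junction, is encoded at CG1804 (BDGP6 chromosome 3R, 31622136 to 31664646, plus strand). Its levels were 160, 200.8 and 141 normalised counts in water and 159, 196 and 176 after dsRNA, and the groups overlapped, replicate 2 being highest in each. For kek6 the log2 fold change was 0.09 ± 0.20 (SE), and it was −0.03 ± 0.22 without water replicate 3. An exon of pasha on the same strand shares 82 bases with the exons of kek6, so reads there are uncertain. For kek4 (CG9431; BDGP6 chromosome 2L, 13212335 to 13215350, minus strand) there were 3 to 8 reads a library, at 3.78, 6.43 and 4.96 normalised counts in water and 2.73, 8.52 and 4.19 after dsRNA. Its log2 fold change of −0.07 ± 0.46 (SE) turned to 0.24 ± 0.50 without dsRNA replicate 1 and to 0.09 ± 0.53 without water replicate 2. A difference between groups was not detectable in kek4 at this depth. The family members kek2 and kek3 were not analysed here.

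Transcripts of sli varied by over 3-fold among the water libraries and little among the dsRNA libraries. The gene (CG8355; BDGP6 chromosome 2R, 15869495 to 15922118, minus strand) had 5140, 2003 and 7173 normalised counts in water libraries 1 to 3. In dsRNA replicates 1 to 3 it stood at 5860, 4705 and 5304, all of them within the water range. Group means were 4772 ± 2605 and 5290 ± 578 (SD, n = 3 each). For sli the log2 fold change was 0.33 (SE 0.44), and its 95% confidence interval ran from −0.72 to 1.38. Without water replicate 2 the sign turned, to −0.20 ± 0.15 (limma adjusted p = 0.891). Without water replicate 3 it was 0.72 ± 0.38. A second identifier now merged into sli by RefSeq, CG33464, has a row of its own, at 1706, 650 and 2283 normalised counts in water and 1840, 1408 and 1560 after dsRNA. It showed the same order of water libraries. Since exon lengths are those of the merged gene, the level per length of CG8355 alone is an underestimate, and both rows together came to a mean of 19.7 in water.

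**Figure D3:**
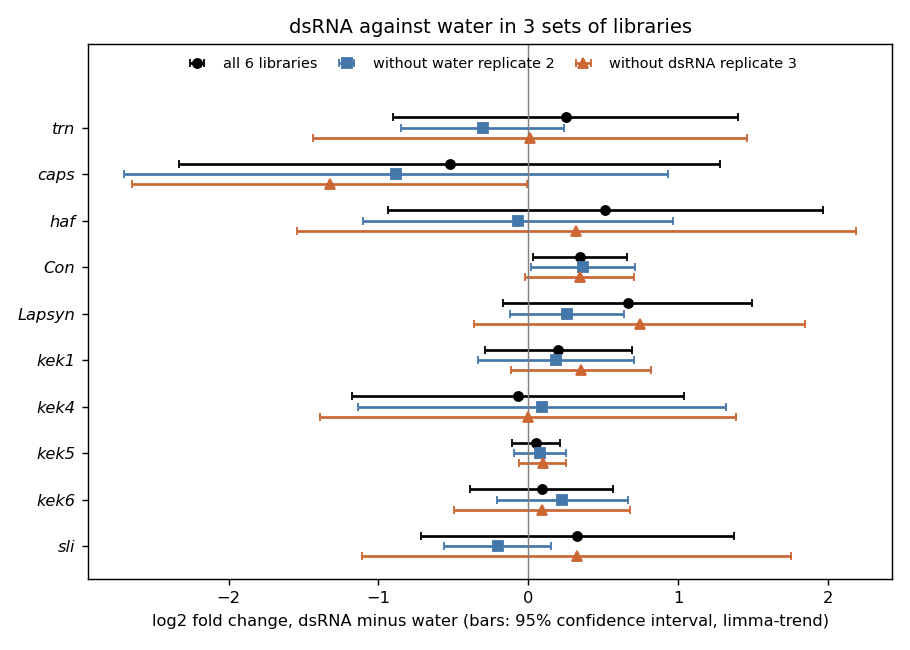
Log2 fold change of dsRNA minus water for each gene with its 95% confidence interval by limma-trend, from all 6 libraries (black), without water replicate 2 (blue) and without dsRNA replicate 3 (orange). The interval of Con with all libraries runs from 0.03 to 0.66, and trn, haf, sli and kek4 cross to the other side of 0 without water replicate 2.

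In 5 of the 10 genes water replicate 2 stood well below the rest of its group. In trn, caps, haf, Lapsyn and sli this library was the lowest of the water group and stood at 0.313, 0.444, 0.220, 0.428 and 0.325 of the mean of water replicates 1 and 3. For 5 of 10 members it was the lowest water library, beside 42.7% of all genes, and for the same 5 it lay under 0.5 of the mean of the other two, beside 17.3% of all genes. The remaining genes did not follow: the ratio was 1.05 for Con, 1.05 for kek5, 0.962 for kek1, 1.33 for kek6 and 1.47 for kek4. In this library the maternally loaded list was highest, at a summed 86726 normalised counts against 54674 and 54902 in the other water libraries. A list drawn up for later embryos (elav, repo, Mhc, Act57B, Hml, Ubx, en and wg) was lowest in it, at a summed 454 against 1129 and 1343. Most of that sum came from elav, wg and en, and 6 of 8 genes of the list were lowest in this water library. The gene repo was highest in it, at 14.2 against 12.1 and 10.9, and Mhc had 1 to 6 reads a library. Whether this sum follows the age of the embryos was not tested. The part of these shifts in the differences was not tested.

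**Figure D4:**
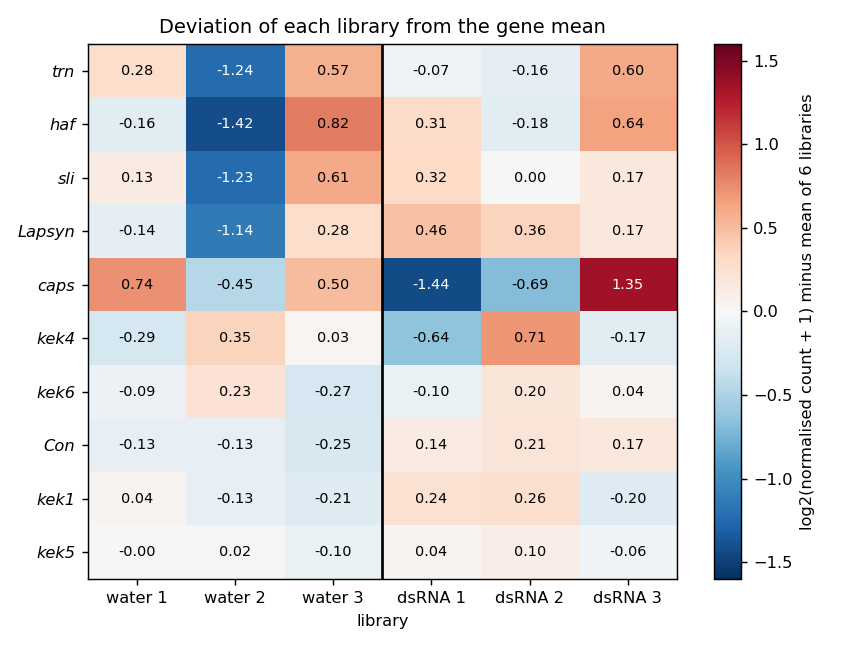
Log2(normalised count + 1) of each gene minus its mean over the 6 libraries, with red above and blue below the mean and the value printed in each cell. The column of water replicate 2 holds −1.24 for trn, −1.42 for haf, −1.23 for sli and −1.14 for Lapsyn, while kek5 stays between −0.10 and 0.10 in every library.

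Libraries of the dsRNA group also differed among themselves beyond counting error in trn and caps, and likewise in sli, Lapsyn, kek5 and kek1. For haf, at 7 to 16 reads, they did not. In dsRNA replicate 3 trn, caps and haf stood at 1.64, 5.99 and 1.52 times the mean of dsRNA replicates 1 and 2. It was the highest dsRNA library for these 3 of 10 members, beside 41.4% of all genes, and the lowest for 3 of 10 (Lapsyn, kek1 and kek5), beside 39.6%. A list of cellularisation (cell formation) genes held slam, nullo, bnk, halo and Sry-alpha. Its sum was 204911 normalised counts in dsRNA replicate 3 and 327744 and 281581 in dsRNA replicates 1 and 2. The largest part was slam, at 118867 against 197410 and 166753, while nullo was not lowest there, at 9087 against 8936 and 10176. In the same order the later-embryo list stood at a summed 1181 against 836 and 760. Its genes en, Mhc and Act57B were not highest in dsRNA replicate 3. The maternally loaded list also summed highest in dsRNA replicate 3, at 66871 against 46982 and 62227. Most of it was smg, at 58218 against 40561 and 54601, and png was not highest there. Pole-cell genes summed to 9557 against 7621 and 8235, and of these gcl stood at 4435 against 2652 and 3423. The pole-cell genes vas and osk were not highest in dsRNA replicate 3. The part of these shifts in the spread of trn and caps was not tested.

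Compared by same-numbered libraries, Con, kek1 and kek5 were higher after dsRNA in all 3 pairs. The ratios of dsRNA to water in pairs 1, 2 and 3 were 1.21, 1.26 and 1.34 for Con. Those of kek5 were 1.03, 1.06 and 1.03, and those of kek1 were 1.15, 1.32 and 1.00. Pair 3 of kek1 was close to level, at 111.2 in water and 111.7 after dsRNA, where 1 read is 1.40 normalised counts in that dsRNA library. All 3 pairs were higher for 3 of 10 members, beside 10.7% of all genes, and all 3 were lower for 0 of 10, beside 14.4%. For trn the pairs pointed in different directions, with ratios of 0.782, 2.12 and 1.02. In a fit that took the replicate number as a block, 0 of 10 members and 0 of 9073 genes passed, and 1 of 10 members (Con) had an unadjusted p under 0.05, beside 3.84% of all genes (348 genes in place of 206). Con stood in that fit at 0.34 ± 0.13 (log2, SE; limma adjusted p = 0.898).

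The spread between libraries was also set against the error of counting reads, within each group. The coefficient of variation (CV, the SD as a percentage of the mean) between water libraries was 54.6% for sli, 53.0% for trn and 44.6% for Lapsyn, where counting alone gives 1.41%, 2.74% and 4.33%. For Con it was 4.88% in water and 2.48% after dsRNA, below the 6.23% and 5.63% that counting alone gives. The most deeply read gene, kek5, had a CV of 4.49% and 5.80%, beside 1.22% and 1.21% from counting. In kek4 the CV of 26.3% in water and 58.5% after dsRNA stood beside 45.7% and 46.0% from counting. For kek1 it was 9.04% in water and 17.2% after dsRNA, beside 9.13% and 8.53% from counting, and for haf 77.6% and 30.2%, beside 33.2% and 31.6%. Between dsRNA libraries caps reached 108.8% beside 31.3% from counting, the largest CV among the 10. In that group trn stood at 30.7% beside 2.87%, sli at 10.9% beside 1.40% and Lapsyn at 10.1% beside 3.68%.

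**Figure D5:**
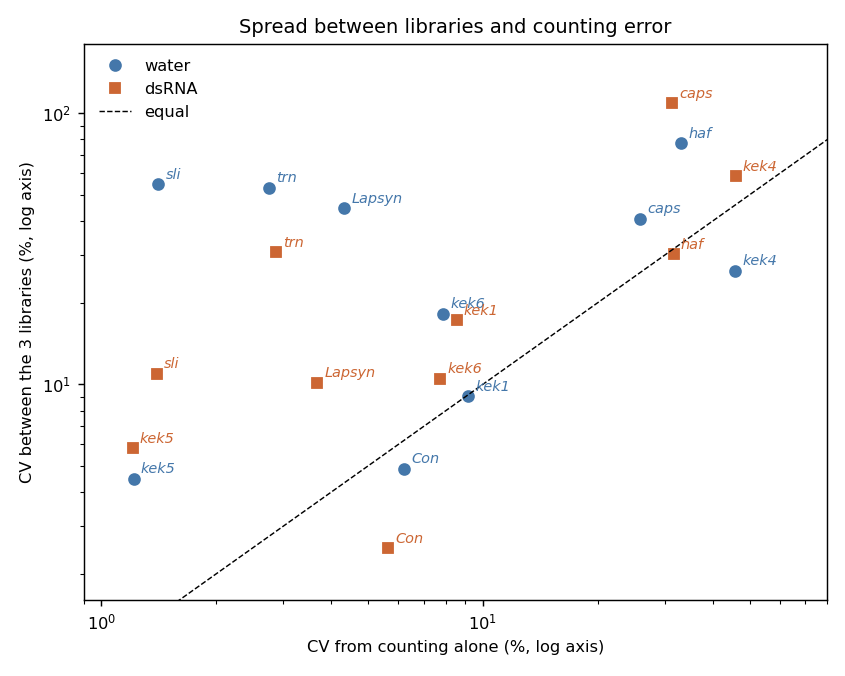
Coefficient of variation between the 3 libraries of a group (percent, log axis) against the one that read counting alone gives (percent, log axis), for water (blue) and dsRNA (orange). Points on the dashed line vary as much as counting gives; sli and trn in water lie far above it, at 54.6% and 53.0%, and Con lies below it in both groups.

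Binding partners of these proteins were measured for 8 of 9 listed genes, and 0 of 8 passed the limma test over all genes. At an unadjusted limma p under 0.05 there was 1 of 8 (Egfr), beside 2.27% of all genes. The median log2 fold change of the list was 0.06, beside −0.0015 over all genes. The Slit receptor robo1 stood at 1773, 1094 and 2018 normalised counts in water and 2512, 2264 and 1718 after dsRNA (log2 0.44 ± 0.25, SE). The second receptor, robo2, stood at 4080, 1014 and 5506 in water and 3523, 2676 and 4071 after dsRNA (log2 0.25 ± 0.60). In both receptors water replicate 2 was lowest, as in sli, and the groups overlapped. The teneurin Ten-m, a partner of Tartan, was nearly level at 7216, 6408 and 7074 in water and 7076, 7570 and 7125 after dsRNA (log2 0.07 ± 0.07). Its relative Ten-a stood at 259 ± 69.3 and 212 ± 63.9 (SD, n = 3 each; log2 −0.30 ± 0.32). Egfr, the receptor that Kek1 inhibits, stood at 5518 ± 712 and 6934 ± 891 (log2 0.33 ± 0.13, SE; limma adjusted p = 0.999), with overlap between groups.

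Of 18 other genes listed for leucine-rich-repeat proteins of the surface or matrix, 15 were measured and 0 passed by limma. Their median log2 fold change was 0.16, 11 of 15 were positive, and for 12 of 15 water replicate 2 was the lowest water library, beside 42.7% of all genes. The glycoprotein-hormone-type receptor gene Lgr1 (CG7665) was the 1 of 15 higher with no overlap, beside 2.99% of all genes. It was also the 1 of 15 with an unadjusted limma p under 0.05, beside 2.27% of all genes. From 4 to 34 reads a library, Lgr1 stood at 16.6, 5.15 and 16.9 normalised counts in water and 21.1, 36.2 and 30.7 after dsRNA (log2 1.25 ± 0.49, SE, limma adjusted p = 0.999). The levels of hfw were nearly even, at 1623 ± 79.1 and 1545 ± 21.1 (SD, n = 3 each), and those of ltl were 878 ± 515 and 1027 ± 192. For 2mit, at 0 to 7.72 normalised counts, no difference was detectable at this depth.

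Intracellular proteins with the same repeats served as a contrast: 7 of 7 were measured, 0 passed by limma, and the median log2 fold change was −0.03. At an unadjusted limma p under 0.05 there was 1 of 7 (sds22), beside 2.27% of all genes. Here water replicate 2 was the lowest water library for 2 of 7, beside 42.7% of all genes, and 7 genes are too few to set apart from that share. The phosphatase regulator sds22 (CG5851) was the 1 of 7 lower with no overlap, beside 3.36% of all genes. It stood at 1179, 1137 and 1283 after dsRNA against 1545, 1694 and 1426 in water (log2 −0.37 ± 0.10, SE, limma adjusted p = 0.999). The gene fliI stood at 3298 ± 475 and 2817 ± 352, and Sur-8 at 5889 ± 121 and 6267 ± 379 (SD, n = 3 each). Toll receptors, which also carry these repeats, had log2 fold changes from 0.03 for Tl to 1.40 for Tollo, with 0 of 5 past the threshold over all genes and 2 of 5 (Toll-7 and Tollo) higher with no overlap, beside 2.99% of all genes.

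The genes whose pattern over the 6 libraries was most like that of trn were Cad88C, S1P, smal, Camp and pon. Likeness was Pearson's r of log2(normalised count + 1) among 6221 genes outside the members with a mean of at least 100 normalised counts, given as a description. The r was 0.999 for Cad88C and S1P, 0.997 for smal and 0.996 for Camp and pon, and without water replicate 2 it was 0.995, 0.995, 0.987, 0.981 and 0.981. In each of the 5 genes, as in trn, water replicate 2 was lowest and dsRNA replicates 1 and 2 lay below water replicates 1 and 3. The genes were chosen by r over these same libraries, so the shared order follows from that choice. Cad88C, for example, stood at 152, 28.3 and 208 in water and 110, 96.9 and 233 after dsRNA. The points share their libraries, so library-wide shifts enter every r.

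Genes listed for the stage and the regions of the embryo were read in every library. All 5 cellularisation genes were measured, with summed levels of 187173 to 249304 normalised counts in water and 204911 to 327744 after dsRNA. By limma 0 of 5 passed, and 1 of 5 (nullo) had an unadjusted p under 0.05, beside 2.27% of all genes. Summed levels in water and after dsRNA were 6527 to 11905 and 9869 to 13181 for 4 of 4 mesoderm genes, and 6028 to 7474 and 6369 to 8440 for 4 of 4 dorsal ectoderm and amnioserosa genes. Pole-cell genes, 5 of 5, summed to 8469 to 12993 and 7621 to 9557, and 5 of 5 maternally loaded genes to 54674 to 86726 and 46982 to 66871. The 8 of 8 genes of the list for later embryos summed to 454 to 1343 and 760 to 1181, most of it from elav, wg and en. None of the measured genes of these lists was at 0 in any library, and none passed by limma. Within the water group, 5 of 5 pole-cell and 5 of 5 maternally loaded genes were highest in water replicate 2, and nanos stands in both lists. The share of all genes highest in that library was not counted, so how unusual these counts are cannot be told. Limma-voom likewise passed 0 genes of each list of partners, other leucine-rich-repeat genes, Toll receptors and markers.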

How the data were processed

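Poly(A) RNA of whole embryos was sequenced, and 6 libraries were compared, grouped by their titles. Of tools, HTSeq, DESeq, Bowtie2 and TopHat2 (version 2.0.9) stand in the submitters' processing notes, with build dm3. The sources used here give neither the strand setting nor the annotation release. Each deposited value is a normalised signal: after subtracting 1, 100% of values in each library were whole multiples of a single step within 0.01 read, so the authors had divided reads by a size factor and added 1. There were 0 columns of other samples.

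From these, log2(normalised count + 1) was tested by robust limma-trend (limma 3.58.1, R 4.3.3), with Benjamini-Hochberg adjustment over 9073 genes and a threshold of 0.05; the minimum mean of 1 removed 0 of the 10 members, while a minimum of 5 CPM leaves 6. Rows that name no gene, 12.4% to 14.8% of reads with a non-unique alignment, 0.72% to 0.75% ambiguous and 4.32% to 4.91% outside genes, stayed out. No count model was run. TMM factors were computed with own code, and the fit was tested on simulated data. The simulated libraries shared a common spread and none lay apart as water replicate 2 did, so that test does not cover such a library. Symbols came from a RefSeq table (8987 matched) and positions from BDGP6, whose build differs from dm3, without conversion. Exon lengths of BDGP6 may differ from those the authors counted.

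Same-numbered libraries deviated together from their group means across genes (correlations of 0.24, 0.37 and 0.22, against −0.38 to 0.11 for other pairs), so the replicate block was tried. Deviations from a group mean cancel within the group, so the other pairs are not an independent comparison. The pairing comes from the data, not the labels. Members and lists were chosen with earlier results of these data known. All members were named, with every measured Slit receptor and teneurin, up to 4 genes of lowest p from each other list, and the 5 genes most like trn with a mean of at least 100.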

Additional observations from a re-analysis of the deposited data

How the results depend on the processing

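Of the 10 members, 0 passed under the fit reported and under each of the 14 alternatives, in which adjusted p-values ran from 0.0555 to over 0.999. The number of genes past the threshold, 1 with limma-trend, was 3 with limma-voom, 302 with library quality weights and 0 with the replicate block, and 0 to 4 on leaving out single libraries, with 4 without water replicate 2. TMM scaling, upper-quartile scaling, a pseudocount of 10, no filter and a mean of at least 5 CPM each left 1 gene. The quality weights ran from 0.16 for water replicate 2 to 14.9 for water replicate 1 and their estimation stopped short of its tolerance, so their p-values rest largely on few libraries. Under these weights Con stood at 0.33 ± 0.07 (limma adjusted p = 0.0555), Lapsyn at 0.50 ± 0.12 (0.0644) and caps at −1.40 ± 0.35 (0.0651), on the log2 scale with SE, and trn (−0.34), sli (−0.039) and kek4 (0.58) changed sign.

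Signs also turned without water replicate 2 for trn (−0.30), haf (−0.069), sli (−0.20) and kek4 (0.091), without dsRNA replicate 1 for caps (0.065) and kek4 (0.24), and without water replicate 3 for kek6 (−0.025). On leaving out single libraries the log2 fold change ran from −0.30 to 0.60 for trn, −1.33 to 0.065 for caps, −0.069 to 1.05 for haf, −0.44 to 0.24 for kek4, −0.025 to 0.23 for kek6 and −0.20 to 0.72 for sli. The other 126 of 136 fits of a member kept its sign. The replicate block changed no call on a member. Low read numbers limit caps, haf and kek4, for which a pseudocount of 10 gives log2 fold changes of −0.21, 0.20 and −0.01.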
